A study of Mus with 2 samples.

Results

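Interferons are secreted proteins that cells release on sensing virus or double-stranded RNA. Type I interferons bind IFNAR1 and IFNAR2, and the kinases JAK1 and TYK2 then pass the signal to transcription factors, STAT2 and IRF9 among them, that switch on the interferon response genes. Interferon-gamma uses IFNGR1 and IFNGR2 and raises the transcription factor IRF1. In hematopoietic stem cells (HSCs), interferon is known as a signal that can draw quiescent cells into cycle, and stem cells are known to hold part of the antiviral program without infection. Poly(I:C), abbreviated pIpC, is a synthetic double-stranded RNA that raises type I interferon in mice. It is also the usual way to switch on Mx1-Cre, because the Mx1 promoter that drives this recombinase is itself an interferon response promoter.

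The levels of 39 interferon response genes, of 27998 genes listed, were described in single cells sorted as HSCs. The genes were taken by symbol from a list, and each matched 1 row of the count matrices. The rule itself uses no measured value, but the list was drawn up with earlier results of these data known. They comprise 5 genes of interferon signalling, 7 of nucleic acid sensing and restriction, 13 antiviral effectors, 3 IFITM genes, 2 IFI27 genes, 5 immunity-related and guanylate-binding GTPases and 4 genes of the immunoproteasome and peptide transport.

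The cells were LSK FLT3- CD150+ CD48- bone marrow cells from mice 8 to 12 weeks of age. Each genotype was represented by 1 droplet library (10x Genomics Chromium) of 1000 sorted cells, pooled over the tibias and fibulas of 5 mice. One came from Mx1-Cre Id2+/+ mice and the other from Mx1-Cre Id2Δ/Δ mice, called Id2-deleted here, and the labels give no strain. Both genotypes carried Mx1-Cre. The study describes purification of the cells weeks after pIpC, not within the first days of it. The protocol text of the Id2-deleted library mentions Id2+/+ animals as donors of the bones, in conflict with the library's title and genotype, which were followed. No library without pIpC was analysed here, so the levels below are levels after pIpC and not a response to it. With 1 library per genotype no difference between genotypes could be tested, genotype and library cannot be told apart, and every interval below is a 95% interval that covers counting error only.

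The libraries held 8612217 UMIs (Id2+/+) and 17140713 UMIs (Id2-deleted), a UMI being the tag of 1 captured RNA molecule. After removal of cells with high mitochondrial content, 333 and 625 cells remained, of which 44 and 169 were erythroid-like and 27 and 40 neutrophil-like, although the gate should hold neither type. The other 262 and 416 cells are called retained HSCs. Of these, 79 and 82 were platelet-biased-like, and the remaining 183 and 334 are called other HSCs. The other HSCs comprised 173 and 201 HSC-like cells, 9 and 49 activated-HSC-like cells led by mitotic genes such as Ccnb2, and 1 and 84 unnamed cells led by DNA replication genes, so that the Id2-deleted group held more cycling cells. The HSC-like cells too came from different clusters, 171 of the Id2+/+ cells from 1 led by Meg3, Fos and Klf2 and the 201 Id2-deleted cells from 1 led by Cd74, H2-Aa and Iigp1, so values within this class also compare clusters. Clustering was run without the 39 genes, but its clusters followed the libraries, and on average 89.6% (Id2+/+) and 99.7% (Id2-deleted) of the nearest neighbours of a retained HSC were from its own library. Different clusters held the platelet-biased-like cells of each library, 1 of 75 Id2+/+ cells led by the heat shock gene Hspa1a, 1 of 55 Id2-deleted cells led by Pf4 and 1 cycling cluster with 4 and 27 cells. The Id2 transcript itself had 22 UMIs in the Id2+/+ and 0 UMIs in the Id2-deleted retained HSCs.

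The interferon response genes together lay at near-equal levels in both libraries. Levels are given as CPM, the UMIs of a gene per 1000000 UMIs of the same cells, and ratios as Id2-deleted over Id2+/+. Summed over all 39 genes, the level in retained HSCs was 5037 CPM in Id2+/+ and 5287 CPM in Id2-deleted cells, a ratio of 1.05 (1.03 to 1.07). Within other HSCs and within platelet-biased-like cells the ratios were 1.0003 (0.97 to 1.03) and 1.002 (0.96 to 1.05). The IFITM genes made up most of this sum, and the 30 genes outside the IFITM, IFI27 and immunoproteasome groups had a ratio of 0.96 (0.91 to 1.01) in retained HSCs, 0.91 (0.86 to 0.97) in other HSCs and 0.87 (0.79 to 0.96) in platelet-biased-like cells. In the HSC-like cells the 30 genes stood the other way, at 1406 CPM (1338 to 1476) in Id2+/+ and 1473 CPM (1416 to 1532) in Id2-deleted cells, with overlapping intervals. Of the 39 genes, 37 had at least 20 UMIs over both libraries, the minimum for a ratio to be read. None of the 37 was higher by at least 1.5-fold in Id2-deleted cells, against 3.76% of the 10458 genes that passed the same minimum. There were 3 lower by at least 1.5-fold, or 8.11%, against 13.3% of all genes. The median log2 ratio was -0.02 for the 37 genes and -0.08 for all genes. The counting interval lay above 1 for 6 genes, below 1 for 6 genes and included 1 for 25 genes. With the HSC-like cells alone, 2 of 36 genes were higher, against 5.29% of all genes, and 2 were lower, against 11.7%. The lower ones were Stat2 and Rsad2, and the higher ones Igtp (39.4 and 68.6 CPM, ratio 1.74, 1.22 to 2.51) and Zbp1 (10.5 and 15.8 CPM, ratio 1.51, 0.74 to 3.26).

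**Figure D1:**
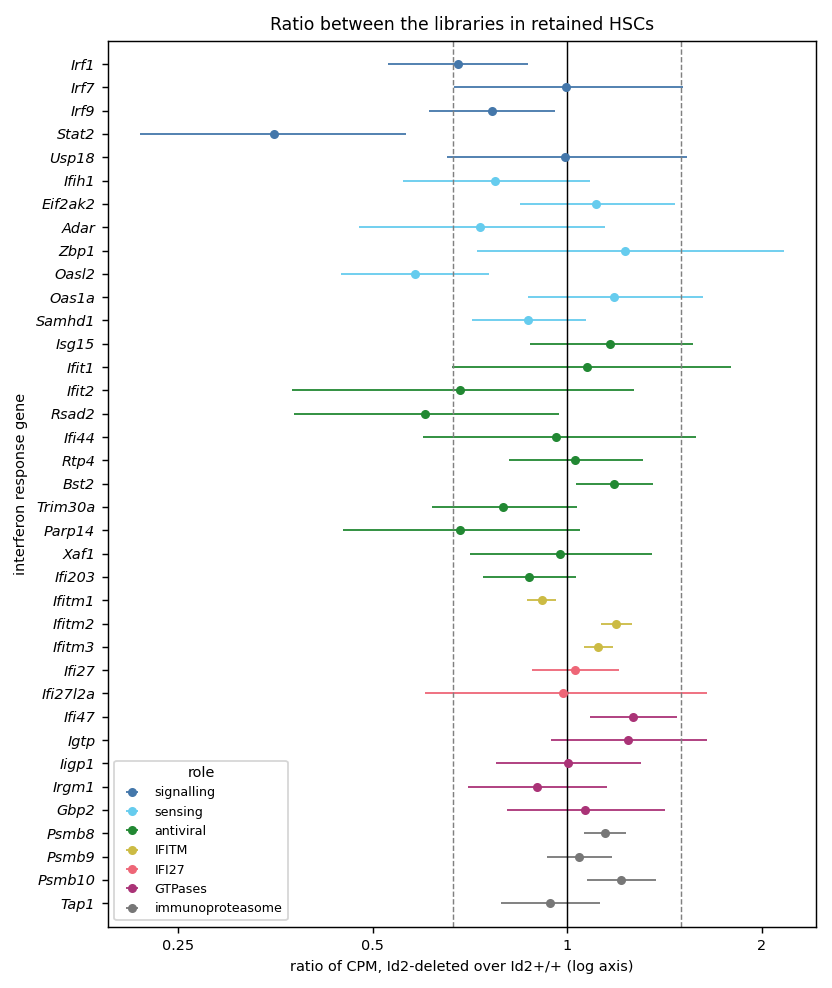
Ratio of the level in Id2-deleted to that in Id2+/+ retained HSCs for the 37 interferon response genes with at least 20 UMIs, on a log axis, coloured by role. Points are ratios, bars 95% counting intervals, the solid line is at 1 and the dashed lines mark 1.5-fold; Stat2, Oasl2 and Rsad2 lie left of the lower dashed line and no gene lies right of the upper one.

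Among the signalling genes none had a higher level in Id2-deleted cells. Stat2 encodes the STAT that is particular to type I and type III interferon signalling, and it lies on chromosome 10 at 128270498 to 128292853 (GRCm38.p6). It had 44 UMIs or 20.6 CPM (14.99 to 27.7) in Id2+/+ and 34 UMIs or 7.26 CPM (5.03 to 10.1) in Id2-deleted retained HSCs, and these intervals do not overlap. The ratio was 0.35 (0.22 to 0.56). The gene was also lower in the empty droplets of the Id2-deleted library, which hold free RNA, at 6.52 and 2.86 CPM. The 39 genes together were lower there too, at 2806 and 2188 CPM, a ratio of 0.78, which stands beside the empty-droplet values of every gene given here. Both pools mixed sexes, and the Stat2 ratio was 0.36 (0.17 to 0.76) among Xist-positive cells and 0.35 (0.12 to 0.94) among cells with Y-linked transcripts.

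Irf9, which encodes a DNA-binding partner of STAT2, stood at 59.5 and 45.5 CPM, a ratio of 0.76 (0.61 to 0.96). Irf1, a transcription factor gene induced most strongly by interferon-gamma, stood at 51.1 and 34.6 CPM, and its ratio of 0.68 (0.53 to 0.87) fell just short of 1.5-fold. Immediate-early genes of cell stress moved the same way, Fos being at 211 CPM in Id2+/+ and 35.2 CPM in Id2-deleted cells, and their part in the Irf1 value was not tested. Irf7, which encodes the factor that amplifies type I interferon production, was at 17.3 CPM in both libraries. The equal value joined 10.2 and 18.1 CPM in Xist-positive cells (ratio 1.79, 0.84 to 4.37) and 17.1 and 15.1 CPM in cells with Y-linked transcripts (ratio 0.88, 0.39 to 2.07). Usp18, whose product removes ISG15 from proteins and restrains IFNAR2 signalling, was at 15.9 and 15.8 CPM. Summed over the 5 signalling genes, the level was 165 CPM in Id2+/+ and 120 CPM in Id2-deleted cells, a ratio of 0.73 (0.64 to 0.84). Among HSC-like cells alone the ratios of Irf1 (0.77, 0.57 to 1.05), Irf9 (0.89, 0.67 to 1.18) and Irf7 (1.18, 0.717 to 1.996) had intervals that included 1, and Stat2 was at 0.35 (0.19 to 0.65).

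The sensing and restriction genes were split. Oasl2, a member of the oligoadenylate synthetase family, lies on chromosome 5 at 114896926 to 114912245. It had a level of 49.2 CPM (40.3 to 59.6) in Id2+/+ and 28.6 CPM (24.0 to 33.9) in Id2-deleted cells, a ratio of 0.58 (0.45 to 0.76), and was at 26.8 and 10.4 CPM in the empty droplets. Among HSC-like cells alone the ratio was 0.75 (0.54 to 1.05), short of 1.5-fold. Samhd1, which encodes a nucleotide hydrolase that restricts viral DNA synthesis, was at 69.8 and 60.8 CPM. Its interval of 0.71 to 1.07 included 1. The genes of the double-stranded RNA sensors PKR (Eif2ak2, ratio 1.11, 0.84 to 1.47) and MDA5 (Ifih1, ratio 0.77, 0.56 to 1.08), and of the RNA editing enzyme ADAR1 (Adar, ratio 0.73, 0.48 to 1.14), also had intervals that included 1. So did Oas1a, a second synthetase gene at 27.7 and 32.7 CPM, and Zbp1, the gene of a Z-form nucleic acid sensor at 9.37 and 11.5 CPM. The Ifih1 ratio was 0.39 (0.17 to 0.85) in cells with Y-linked transcripts and 0.82 (0.51 to 1.37) in Xist-positive cells. Ifih1 was at 27.9 and 13.9 CPM in platelet-biased-like cells, and its ratio among HSC-like cells was 1.02 (0.65 to 1.63). The 7 sensing and restriction genes summed to 237 and 207 CPM, a ratio of 0.88 (0.79 to 0.98).

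Of the 13 antiviral effectors, Rsad2 was the member past 1.5-fold. It encodes viperin and lies on chromosome 12 at 26442743 to 26456452. Its level was 15.9 CPM (11.0 to 22.3) in Id2+/+ and 9.60 CPM (7.01 to 12.8) in Id2-deleted cells, so the intervals overlapped, and the ratio was 0.60 (0.38 to 0.97). In the empty droplets it was at 19.1 and 9.36 CPM. The effector with the highest level was Bst2, which encodes tetherin, a membrane protein that holds budding virus at the cell surface. It stood at 136 and 161 CPM, a ratio of 1.18 (1.03 to 1.36). Ifi203, of the PYHIN family of DNA-binding proteins, was at 103 and 89.6 CPM. Isg15, the ubiquitin-like protein gene that marks acute interferon signalling, was at 31.9 and 37.1 CPM, a ratio of 1.17 (0.88 to 1.57). Rtp4, a chaperone gene for membrane receptors, was at 48.7 and 50.2 CPM, Xaf1 at 27.2 and 26.5 CPM and Ifi44 at 12.7 and 12.2 CPM. Trim30a (ratio 0.80, 0.62 to 1.03) and Parp14 (ratio 0.68, 0.45 to 1.05) were lower with intervals that included 1. The Parp14 ratio was 0.62 (0.31 to 1.30) in Xist-positive cells and 1.59 (0.66 to 4.22) in cells with Y-linked transcripts.

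Of the 13 effectors, Ifit3 and Mx1 stayed under the minimum of 20 UMIs. Ifit1, Ifit2 and Ifit3 lie within chromosome 19 from 34550550 to 34650009, and had 25, 20 and 2 UMIs in Id2+/+ and 59, 30 and 8 UMIs in Id2-deleted retained HSCs. Mx1, on chromosome 16 at 97447035 to 97462906 and listed by RefSeq as a transcribed pseudogene, had 0 and 2 UMIs. These values do not bear on the Mx1-Cre transgene, which is a separate sequence. The 95% upper limit for the count of 0 in the Id2+/+ library was 1.73 CPM. Summed over the 13 effectors, the level was 461 CPM and 456 CPM, a ratio of 0.99 (0.92 to 1.07).

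The IFITM genes, which encode small membrane proteins that block virus entry, had the highest levels of the list. Because each molecule is counted once by its 3' end, CPM does not grow with transcript length here. Ifitm1 was at 1038 and 948 CPM, Ifitm2 at 831 and 990 CPM and Ifitm3 at 1016 and 1136 CPM. The ratios were 0.91 (0.87 to 0.96), 1.19 (1.13 to 1.26) and 1.12 (1.06 to 1.18), each within 1.5-fold. Among HSC-like cells alone the Ifitm1 ratio was 1.05 (0.99 to 1.11). The genes are similar in sequence and lie within chromosome 7 from 140954837 to 141010744, so reads could be split between them. Ifi27, a mitochondrial protein gene, was at 114 and 117 CPM. Its locus lies inside that of Ifi27l2a in RefSeq, on chromosome 12 from 103433873 to 103443680, so that both values are uncertain. Ifi27l2a was at 11.7 and 11.5 CPM.

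The interferon-inducible GTPases attack the membranes of vacuoles that hold pathogens. Ifi47 was at 105 and 133 CPM, a ratio of 1.27 (1.09 to 1.48). The Ifi47 ratio was 1.64 (1.248 to 2.196) in Xist-positive cells and 0.95 (0.711 to 1.282) in cells with Y-linked transcripts. Irgm1, the regulatory member known to be required for normal HSC function, was at 47.3 and 42.5 CPM. Iigp1 was at 41.7 and 41.8 CPM, with a large part of the Id2-deleted UMIs in a few cells described further on. The equal pooled value joined 31.4 and 77.6 CPM in cells with Y-linked transcripts (ratio 2.47, 1.52 to 4.17) and 33.0 and 22.7 CPM in Xist-positive cells (ratio 0.69, 0.43 to 1.13). Igtp stood at 34.2 and 42.5 CPM, with ratios of 2.08 (1.199 to 3.77) and 0.97 (0.64 to 1.53) in the same sets of cells, and Gbp2 at 34.7 and 36.9 CPM. In the immunoproteasome, which makes peptides for MHC class I, Psmb8 was at 444 and 508 CPM, a ratio of 1.14 (1.06 to 1.24), Psmb10 at 166 and 202 CPM, and Psmb9 at 200 and 209 CPM. Tap1, the peptide transporter gene that lies between Psmb9 and Psmb8 on chromosome 17, was at 90.9 and 85.6 CPM. The summed level was 263 and 297 CPM for the GTPases, a ratio of 1.13 (1.02 to 1.25), or 1.04 (0.91 to 1.18) without Ifi47. For the immunoproteasome group it was 901 and 1004 CPM, a ratio of 1.11 (1.06 to 1.18).

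As a share of the UMIs of each class, many interferon response genes were lower in platelet-biased-like, erythroid-like and neutrophil-like cells than in other HSCs. The cells of these classes were deeper, with medians of 10598 and 16462 UMIs (platelet-biased-like), 33770 and 38755 UMIs (erythroid-like) and 17626 and 17986.5 UMIs (neutrophil-like). Other HSCs had medians of 6368 and 8960 UMIs, so a lower share need not mean fewer molecules per cell. Within each library the level in platelet-biased-like, erythroid-like and neutrophil-like cells was divided by the level in other HSCs, and a gene was counted where it passed 1.5-fold in the same direction in both libraries. In platelet-biased-like cells 20 of 37 genes were lower, or 54.1%, against 11.5% of all genes. In erythroid-like cells 27 of 35 were lower, or 77.1%, against 33.6%, and in neutrophil-like cells 28 of 34, or 82.4%, against 34.9%. None was higher in any of these classes, where 4.86%, 15.5% and 8.12% of all genes were. The median log2 ratio in platelet-biased-like cells was -0.78 (Id2+/+) and -1.14 (Id2-deleted), beside -0.05 and -0.04 over all genes. It was -1.68 and -1.57 in erythroid-like cells, beside -0.30 and -0.23, and -2.09 and -1.71 in neutrophil-like cells, beside -0.42 and -0.44. The 17 genes not lower in platelet-biased-like cells included Ifitm2, Ifitm3, Bst2, Ifi47 and the 4 immunoproteasome genes. Other HSCs came from the same clustering, and 201 of the 334 Id2-deleted ones were the cluster led by Cd74, H2-Aa and Iigp1. The 39 genes were kept out of the clustering, but Cd74 and H2-Aa were free to shape it. These counts are thus a description and not independent of how the classes formed.

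**Figure D2:**
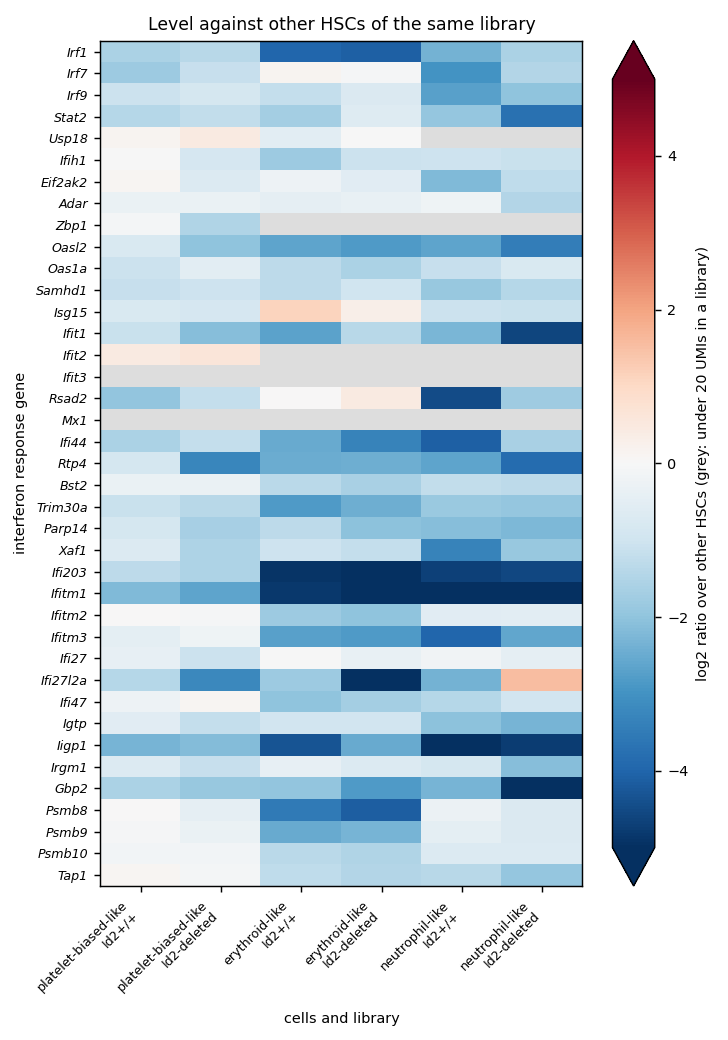
Log2 ratio of the level in platelet-biased-like, erythroid-like and neutrophil-like cells to the level in other HSCs of the same library, for the 39 interferon response genes in rows. Blue marks a lower and red a higher level than in other HSCs, and grey a gene under 20 UMIs; most rows are blue in all 6 columns, and Isg15 is red in both erythroid-like columns, where single cells carry it.

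The 3 IFITM genes differed by class although they are neighbours. Ifitm1 stood at 1546 CPM (1478 to 1617) in Id2+/+ and 1277 CPM (1238 to 1316) in Id2-deleted other HSCs, and at 1625 and 1698 CPM in the HSC-like cells among them. In platelet-biased-like cells it was at 337 and 205 CPM, in erythroid-like cells at 54.3 and 25.8 CPM and in neutrophil-like cells at 41.1 and 27.5 CPM. The platelet-biased-like level was thus 0.22 (0.19 to 0.25) and 0.16 (0.14 to 0.18) of that in other HSCs. Ifitm2 showed no such step, at 828 and 1004 CPM in other HSCs and 835 and 959 CPM in platelet-biased-like cells, and remained at 563 and 705 CPM in neutrophil-like cells. Ifitm3 was at 1151 and 1188 CPM in other HSCs, 830 and 1020 CPM in platelet-biased-like cells and 73.6 and 195 CPM in neutrophil-like cells. The empty droplets held Ifitm1 at 367 and 230 CPM, above its level in platelet-biased-like, erythroid-like and neutrophil-like cells of the same library. By haemoglobin genes, free RNA made up 9.99% and 4.29% of the UMIs of platelet-biased-like cells. In neutrophil-like cells it made up 9.85% and 4.04%. The part of free RNA in the Ifitm1 levels of these classes was not tested.

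Ifi203 followed the pattern of Ifitm1, with 137 and 112 CPM in other HSCs, 54.7 and 38.2 CPM in platelet-biased-like cells, and under 5 CPM in the erythroid-like and neutrophil-like cells of both libraries. Iigp1 was at 63.0 and 55.1 CPM in other HSCs against 12.3 and 11.8 CPM in platelet-biased-like cells. Rtp4 was at 60.6 and 69.3 CPM in other HSCs. Among the HSC-like cells it was at 60.4 and 82.7 CPM, a ratio of 1.37 (1.02 to 1.85). In platelet-biased-like cells the values of Rtp4 were 32.4 and 6.95 CPM, the Id2-deleted level there being 0.21 (0.093 to 0.45) of the Id2+/+ level. All 4 immunoproteasome genes were within 1.5-fold of other HSCs in platelet-biased-like cells and lower past it in erythroid-like cells, in both libraries. In neutrophil-like cells Psmb10 (ratios 0.61 and 0.63) and Tap1 (0.37 and 0.25) were also lower past it in both, and Psmb8 and Psmb9 in Id2-deleted cells alone (0.61 and 0.61). Psmb8 was at 440 and 554 CPM in other HSCs, 449 and 404 CPM in platelet-biased-like and 359 and 336 CPM in neutrophil-like cells, but at 37.9 and 32.1 CPM in erythroid-like cells. Ifi27 was at 127 and 140 CPM in other HSCs, 96.0 and 66.03 CPM in platelet-biased-like, 124 and 107 CPM in erythroid-like and 113 and 102 CPM in neutrophil-like cells, with 160 and 116 CPM in the empty droplets. Its platelet-biased-like level was 0.76 (0.57 to 0.99) of that in other HSCs in Id2+/+ and 0.47 (0.37 to 0.59) in Id2-deleted cells.

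**Figure D3:**
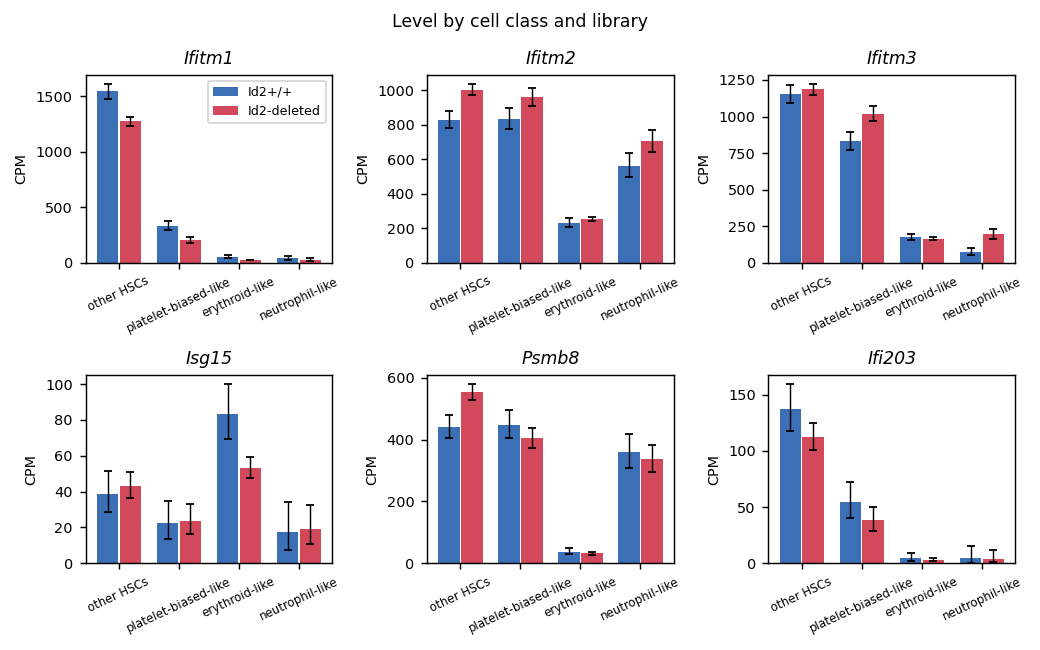
Level in CPM of 6 interferon response genes in the 4 cell classes of both libraries, with 95% counting intervals as bars. Ifitm1 and Ifi203 step down from other HSCs to platelet-biased-like cells, Ifitm2 does not, and Psmb8 has its lowest levels in erythroid-like cells.

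The same order was seen in the share of cells with a UMI once every cell was thinned to 5800 UMIs, which left out 66 Id2+/+ retained HSCs and 0 Id2-deleted ones. An Ifitm1 UMI was found in 95.8% (90.5 to 98.6) of 119 Id2+/+ and 96.1% (93.4 to 97.9) of 334 Id2-deleted other HSCs. In platelet-biased-like cells the share was 80.5% and 65.9%, and in erythroid-like cells, set beside these as a background, 28.6% and 14.8%. Without thinning, 79.5% and 62.1% of the erythroid-like cells had an Ifitm1 UMI, their median depth being 33770 and 38755 UMIs against 6368 and 8960 UMIs in other HSCs. Ifi203 was found in 48.7% and 53.6% of other HSCs and in 0 of 42 (up to 8.41%) and 2.37% of erythroid-like cells. Stat2 was found in 17.6% (11.3 to 25.7) of Id2+/+ and 5.09% (2.99 to 8.02) of Id2-deleted other HSCs.

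Within the Id2-deleted library, 15 of 36 genes were lower past 1.5-fold in the 49 activated-HSC-like cells than in the 201 HSC-like cells, against 20.6% of all genes, and 1 was higher, against 10.1%. In the 84 unnamed cells 17 of 36 were lower, against 17%, and 0 were higher, against 10.7%. Ifitm1 was at 1698, 693 and 863 CPM in the HSC-like, activated-HSC-like and unnamed cells. Ifitm2 (1023, 978 and 985 CPM) and Ifi27 (144, 152 and 127 CPM) were within 1.5-fold, and Ifi27l2a (12.3, 54.1 and 4.71 CPM) was the gene higher in activated-HSC-like cells. Only the 39 genes were kept out of the clustering, and Cd74 and H2-Aa, which interferon-gamma is known to raise, were free to shape the cluster of the 201 cells, so these counts are a description and not independent of how the clusters formed.

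A few single cells held many interferon response UMIs. For this the 30 genes outside the IFITM, IFI27 and immunoproteasome groups were summed per thinned cell. The median cell had 7 of these UMIs among Id2+/+ and 6 among Id2-deleted other HSCs, 4 and 3.5 among platelet-biased-like, 2 and 1 among erythroid-like, and 2 and 1 among neutrophil-like cells. The highest cell had 24 UMIs among Id2+/+ and 87 among Id2-deleted other HSCs. At least 20 UMIs, a limit chosen after the values were seen, were found in 2 of 119 Id2+/+ other HSCs, or 1.68% (0.20 to 5.94), and in 16 of 334 Id2-deleted ones, or 4.79% (2.76 to 7.66). These intervals overlap. At a limit of 15 UMIs the counts were 6 and 27, and at 30 UMIs 0 and 4. No platelet-biased-like cell of either library reached 20 UMIs.

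**Figure D4:**
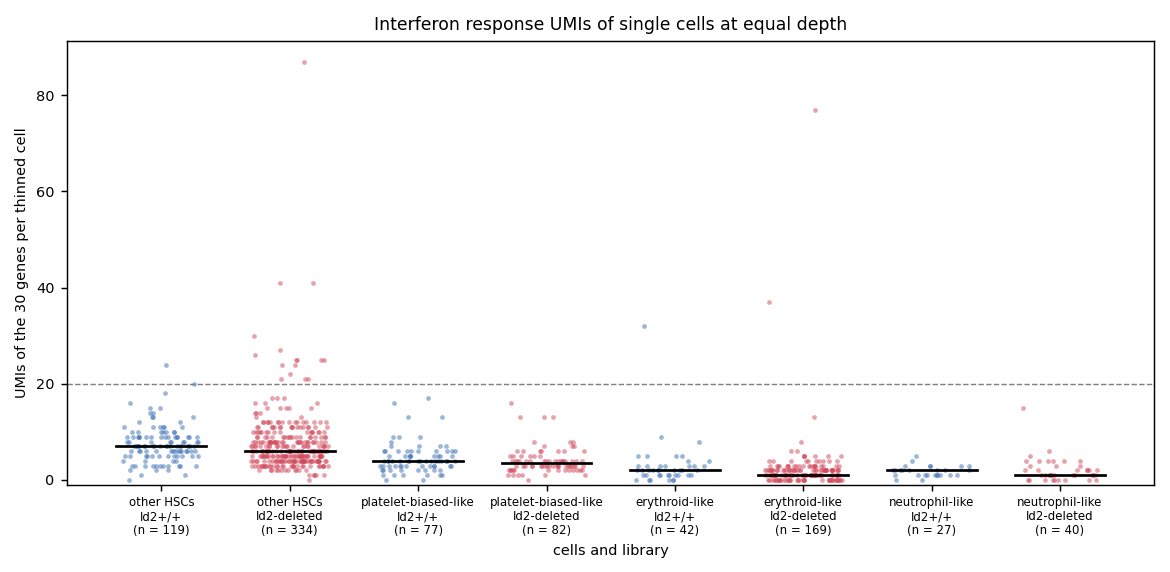
UMIs of 30 interferon response genes in each cell after thinning to 5800 UMIs, by class and library, with the number of cells under each column. Points are cells, black lines medians and the dashed line marks 20 UMIs; most cells lie under 20 UMIs, and 1 Id2-deleted other HSC at 87 UMIs and 1 erythroid-like cell at 77 UMIs stand far above.

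The cells above the limit did not share 1 profile. The highest Id2-deleted HSC had, before thinning, 24 UMIs of Iigp1, 13 of Gbp2, 11 of Igtp and 6 of Irf1, and 0 of Isg15. Another had 15 UMIs of Isg15, 13 of Bst2 and 6 of Ifi44, and 1 of Iigp1. Together the 16 cells held 77 of the 179 Iigp1 UMIs of the Id2-deleted other HSCs, or 43.0%. The highest cells for Iigp1 had 25 and 24 of these, together 49 of the 77. The intervals of the Iigp1 ratios given above do not allow for UMIs gathered in single cells.

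Among erythroid-like cells, single cells held much of the UMIs of some genes. An Id2-deleted erythroid-like cell of 49565 UMIs had UMIs of 27 of the 30 genes, among them 181 of the 341 Isg15 UMIs of its class, 54 of 91 of Usp18 and 34 of 41 of Ifit1, with 50 of 104 of Rsad2. An Id2+/+ erythroid-like cell of 43921 UMIs held 86 of 117 Isg15 UMIs. With the 1 Id2+/+ and 2 Id2-deleted erythroid-like cells above the limit left out, Isg15 was at 22.9 and 22.3 CPM in erythroid-like cells. These values take the place of 83.6 and 53.1 CPM. Other HSCs, with their own cells above the limit left out, stood higher, at 35.1 and 32.7 CPM. None of these cells was marked as a doublet by Scrublet.

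Across other HSCs the antiviral and GTPase sums of a thinned cell had a correlation of 0.30 over 119 Id2+/+ cells and 0.28 over 334 Id2-deleted cells, as a description of cells that share a library. Ifitm1 and Ifitm3 had 0.52 and 0.38, and Ifitm2 with the 30 genes had 0.00 and 0.05.

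The rest of the pathway was read from 67 listed genes, of which 66 were in the matrices and 52 passed 20 UMIs. At 1.5-fold, 8 were lower in Id2-deleted retained HSCs, or 15.4% against 13.3% of all genes, and 2 were higher, or 3.85% against 3.76%. No UMI of the 7 interferon genes listed was found in any analysed cell or empty droplet. Of the receptors, Ifnar1 was at 32.3 and 21.1 CPM, a ratio of 0.65 (0.48 to 0.90), Ifnar2 at 54.4 and 41.8 CPM, Ifngr1 at 84.4 and 74.9 CPM and Ifngr2 at 18.3 and 20.5 CPM. Il10rb, whose product serves the interferon lambda and IL-10 receptors, was at 29.1 and 33.9 CPM. The lambda receptor gene Ifnlr1 had 0 UMIs in both. The kinase genes Jak2 (ratio 0.63, 0.39 to 1.02) and Tyk2 (ratio 0.58, 0.33 to 1.03) were lower past 1.5-fold with intervals that included 1, as were the feedback inhibitor gene Socs3 (0.46, 0.20 to 1.03), the transcription factor gene Irf5 (0.63, 0.40 to 1.01) and the TLR3 adaptor gene Ticam1 (0.63, 0.33 to 1.23). Mavs, the adaptor gene of the RNA sensors (0.66, 0.45 to 0.98), and Herc6, the gene of an ISG15 ligase (0.64, 0.45 to 0.91), had intervals below 1. The 2 higher genes encode MHC class II chains, H2-Aa at 35.2 and 52.9 CPM and H2-Eb1 at 16.9 and 26.9 CPM. Both are expressed by antigen-presenting cells as well, and of the monocyte or dendritic cell markers 3 of 7 (Id2+/+) and 2 of 7 (Id2-deleted) were at 0 in retained HSCs, with summed levels of 405 and 401 CPM. The summed level of 5 B cell markers was 83.0 CPM in Id2+/+ and 44.8 CPM in Id2-deleted retained HSCs. Their part in these values was not tested.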

How the data were processed

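The authors deposited 1 matrix of raw UMI counts per library, with 737280 barcodes and no call of cells. The submitters' processing notes name Cell Ranger 2.2.0 and mm10. A barcode was called a cell at 10% of the 99th percentile of the 1000 deepest barcodes, giving 349 and 632 cells, and a mitochondrial share of 10% of UMIs was the upper limit. The labels count 383 and 686 cells. Between the libraries 1 barcode was shared among the called cells. Cells were clustered in scanpy 1.11.5 (2000 variable genes without the 39 genes, 20 components, 15 neighbours, resolution 1, then 0.8), and clusters were named from marker lists, so the names are rebuilt and can differ from those of the study. Scrublet marked 2 and 1 of the 333 and 625 cells, which were kept in. Doublets may remain.

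Counts were summed per library and class. Levels have exact Poisson intervals, ratios exact conditional intervals and shares exact Clopper-Pearson intervals, all at 95% and for counting error only. Log2 ratios had 0.5 added to each count. A ratio was read with at least 20 UMIs over both libraries, or in each library for classes, and named at 1.5-fold. The interval and the fold rule were checked on simulated counts. Empty droplets were barcodes of 1 to 100 UMIs. By haemoglobin genes, free RNA made up 10.5% (Id2+/+) and 5.41% (Id2-deleted) of the UMIs of retained HSCs.

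A level, a ratio or both were given for genes past 1.5-fold and for the 2 highest of each role. Of the other pathway genes this was done for the receptors and those past 1.5-fold. Values by class and cell were chosen for display after they were seen. The genes and lists were chosen with earlier results of these data known. Loci are from RefSeq for GRCm38.p6, the assembly of mm10, and all 39 genes matched by symbol. Promoter motifs were not analysed here. One item of the pathway is not reported here.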

Additional observations from a re-analysis of the deposited data

Results flagged for a closer look

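The sets compared were cells with Xist or with Y-linked UMIs, and other HSCs, platelet-biased-like, erythroid-like and neutrophil-like cells. In 3 genes the difference between the libraries had opposite directions in 2 of these sets, with counting intervals on either side of 1. The intervals of Rtp4 in HSC-like and platelet-biased-like cells, given above, also lay on either side of 1, but HSC-like cells were not among the sets. With 1 library per genotype none of these contrasts was tested.

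Ifitm1 had a ratio of Id2-deleted to Id2+/+ of 1.25 (1.15 to 1.37) in retained HSCs with Xist and no Y-linked UMI, and of 0.74 (0.67 to 0.81) in those with Y-linked UMIs and no Xist. The levels were 815 and 1021 CPM in the former and 1090 and 803 CPM in the latter. Of the cells with Xist, 42.9% (Id2+/+) and 18.6% (Id2-deleted) were platelet-biased-like, where Ifitm1 was low, against 25.8% and 13.3% of those with Y-linked UMIs. The part of this in the ratios was not tested, and the number of mice behind each set is not known.

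Ifi27 had ratios of 1.29 (1.02 to 1.66) and 0.73 (0.54 to 0.98) in the same sets.

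Ifi27l2a had a ratio of 21.6 (3.63 to 879) in neutrophil-like cells, with 1 UMI in Id2+/+ and 34 UMIs in Id2-deleted cells, and of 0.073 (0.0072 to 0.41) in erythroid-like cells, with 6 and 2 UMIs. A single cell held 32 of the 34 UMIs, and in the same class 1 cell held 51 of the 142 Ifitm3 UMIs.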

How the results depend on the processing

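The ratios of Stat2, Oasl2 and Rsad2 stayed below 1 under every alternative run, at 0.32 to 0.42, 0.44 to 0.75 and 0.50 to 0.76. Oasl2 was short of 1.5-fold with only Xist-positive cells (0.68) and with only HSC-like cells (0.75), as was Rsad2 with all called cells (0.76). None of the single ratios that had been past 1.5-fold changed direction. With all called cells under the mitochondrial limit, erythroid-like and neutrophil-like cells included, 1 gene was higher and 5 were lower past 1.5-fold, and the summed ratios were 0.86 without the IFITM and IFI27 genes (1.03 in retained HSCs), 0.99 for the GTPases (1.13) and 0.85 for the antiviral effectors (0.99). With only cells with Xist, 2 genes were higher (Irf7 and Ifi47) and 4 lower (Stat2, Rsad2, Ifit2 and Parp14), and the antiviral ratio was 1.10. With only cells with Y-linked UMIs, 3 genes were higher (Parp14, Igtp and Iigp1) and 6 lower (Irf1, Stat2, Ifih1, Adar, Oasl2 and Rsad2), and the GTPase ratio was 1.25. TMM scaling, which shifted all log2 ratios by 0.11, gave 1.11 without the IFITM and IFI27 genes. A minimum of 1 UMI gave 2 higher genes, a minimum of 100 UMIs 1 lower gene and a fold of 2 again 1 lower gene. Of the single ratios, 476 values stayed within the counting interval and 42 did not. Subtracting the empty-droplet profile moved 0 of them out of it. The next 2 alternatives were chosen after seeing the data. Leaving out cells with B-cell marker UMIs moved none of these values. With only HSC-like cells, 2 genes were higher and the ratio without the IFITM and IFI27 genes was 1.09.

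Free RNA was not subtracted for erythroid-like cells, whose own haemoglobin sets the scale, and promoter motifs were not run. No paired analysis was possible because there was a single library of each genotype and no shared replicate number.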
